A study of Mus musculus with 9 samples.

Results

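The nuclear genes for subunits of the mitochondrial respiratory chain were compared between 3 kinds of mouse cells by RNA sequencing. The genes were picked by name alone, as symbols of the Nduf, Sdh, Uqcr, Cyc1, Cox4 to Cox8 and Atp5 families, leaving out symbols that end in -ps and the genes of the mitochondrial genome. This gave 91 of the 56481 symbols in the table: 42 genes for complex I, 4 for complex II, 9 for complex III, 19 for complex IV and 17 for complex V. Of the 91, 85 matched 1 gene of GENCODE release M21, which types 4 of them (Cox6c2, Ndufa11b, Ndufb4c and Ndufs6b) as processed pseudogenes. Of the members, 1 (Cox8c) had no count in any library, and 10 stayed under 1 CPM (counts scaled to library size by TMM factors) in every library.

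Complex I takes electrons from NADH and complex II takes them from succinate, and ubiquinone carries both streams to complex III. Cytochrome c passes them on to complex IV, which reduces oxygen, while the protons pumped on the way drive complex V, the ATP synthase. Most subunits are encoded in the nucleus and imported, and the mitochondrial genome encodes the remaining catalytic ones. The corneal endothelium, the cell layer that pumps fluid out of the cornea, is known for its many mitochondria.

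Each group had 3 libraries. Primary neural crest cells (pNCC) came from E13.5 embryos, and primary corneal endothelial cells (pCEC), like pNCC, were kept in DMEM with 10% FBS. Induced cells (iCEC) were grown from neural crest cells in DMEM/F12 with 5% KSR, to which SB431542 was added at 5 µM to block signalling through the TGF-β type I receptor, with fresh medium every 2 days, and colonies were characterised on day 12. Libraries were labelled polyA RNA except pCEC 2 and pCEC 3, which were labelled total RNA, and strain and the separate origin of replicates were not stated, so the p-values reflect how far these libraries spread, which may be technical. The iCEC medium also differed from that of pNCC and pCEC in its base and serum, so that the inhibitor, the medium and the cell type cannot be told apart. Total counts ran from 27389292 to 47967113, and 3 counts amounted to 0.0615 to 0.126 CPM. Markers set the labels in context: the 6 surface epithelium markers summed to 76.9 to 133 CPM in pNCC, 11935 to 18607 CPM in iCEC and 31873 to 51432 CPM in pCEC. Krt12, the keratin of corneal epithelium, was at 0 CPM in pNCC, 0.00829 ± 0.0144 CPM in iCEC and 11087 ± 1943 CPM in pCEC (mean ± SD, n = 3). Col8a2, a collagen of the corneal endothelium's basement membrane, was at 10.6 ± 6.49, 0.0713 ± 0.0623 and 96.2 ± 64.7 CPM in the same order. Of the 6 tested corneal endothelium markers, which hold Col8a2, 4 were called higher and 2 lower in iCEC than in pNCC, and 3 higher and 1 lower in pCEC. Their summed level was 278 to 321 CPM in pNCC, 394 to 647 in iCEC and 341 to 587 in pCEC. The part of these cell types in the results was not tested, and in bulk RNA fewer cells of a type and less RNA per cell cannot be told apart.

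Most subunit genes had higher counts in iCEC than in pNCC. Of the 82 members that passed the filter on low counts, 49 rose, 2 fell and 31 did not pass edgeR's quasi-likelihood test at an adjusted p of 0.05. Over all genes tested, 16.1% were called higher and 15.1% lower. The median log2 fold change was 0.83 over the tested members and 0.05 over all genes tested. All 3 iCEC libraries were above all pNCC libraries for 62 members and below them for 3, beside 24.4% and 27.4% of all genes tested. Calls were made in complex I (21 of 37 tested members rose), complex III (6 of 9), complex IV (10 rose and 2 fell of 15) and complex V (12 of 17), while complex II had 0 of 4 by edgeR and by DESeq2. The iCEC libraries were less alike than the others: over the 76 members with a mean of at least 10 CPM, the median coefficient of variation was 21.7% in iCEC, 7.30% in pNCC and 7.37% in pCEC, and iCEC 3 was the lowest iCEC library for 54 of the 76. The count of members that rose was 14 without pNCC 1, 13 without pNCC 2 and 15 without pNCC 3. It was 34, 42 and 62 without iCEC 1, 2 and 3. Calls over all genes tested moved as well, with 1209, 1093 and 1242 higher without pNCC 1, 2 and 3. Without iCEC 1, 2 and 3 they were 2161, 2267 and 3977, beside 2630 with no library left out. Of the 51 called members, 14 kept their call in each of these 6 fits, and none of the 51 turned its direction.

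In pCEC calls went in both directions. Of 83 tested members, 17 rose against pNCC, 15 fell and 51 did not pass. Over all genes tested, 30.3% were called higher and 32.2% lower. All 3 pCEC libraries were above all pNCC libraries for 30 members and below them for 19, beside 35.4% and 35.6% of all genes tested. Their median log2 fold change was 0.09, beside -0.01 over all genes tested. With library sizes alone in place of TMM scaling, 10 rose and 22 fell, and the median moved from 0.09 to -0.04 over the members and from -0.01 to -0.14 over all genes tested. Without pNCC 2 only 9 members were called higher, and 4446 of all genes tested were, beside 5032 with every library. With pCEC represented by the polyA-labelled library alone, the median log2 fold change was 0.001 over the members and -0.015 over all genes tested.

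Set directly against pCEC, 39 of 81 tested members were higher in iCEC and 0 were lower by edgeR. None was lower at an unadjusted p under 0.05 either, and DESeq2 called 47 higher and 0 lower. Over all genes tested, 10.5% were called higher in iCEC and 9.92% lower, 20.4% in all. The iCEC libraries were all above the pCEC libraries for 55 members and all below for 1, beside 19.7% and 24.3% of all genes tested. The median log2 fold change was 0.72 over the members and 0.04 over all genes tested, and with library sizes alone these became 0.85 and 0.17. The count fell to 22 without iCEC 1, and to 12, 10 and 11 without pCEC 1, 2 and 3. Higher calls over all genes tested fell too, from 1713 to 1205 without iCEC 1 and to 579, 533 and 537 without pCEC 1, 2 and 3. With the polyA-labelled pCEC 1 as the only pCEC library, the median log2 fold change was 0.81 over the members and 0.11 over all genes tested. That fit assumes that pCEC 1 varies like the iCEC libraries, so its calls are not counted.

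**Figure D1:**
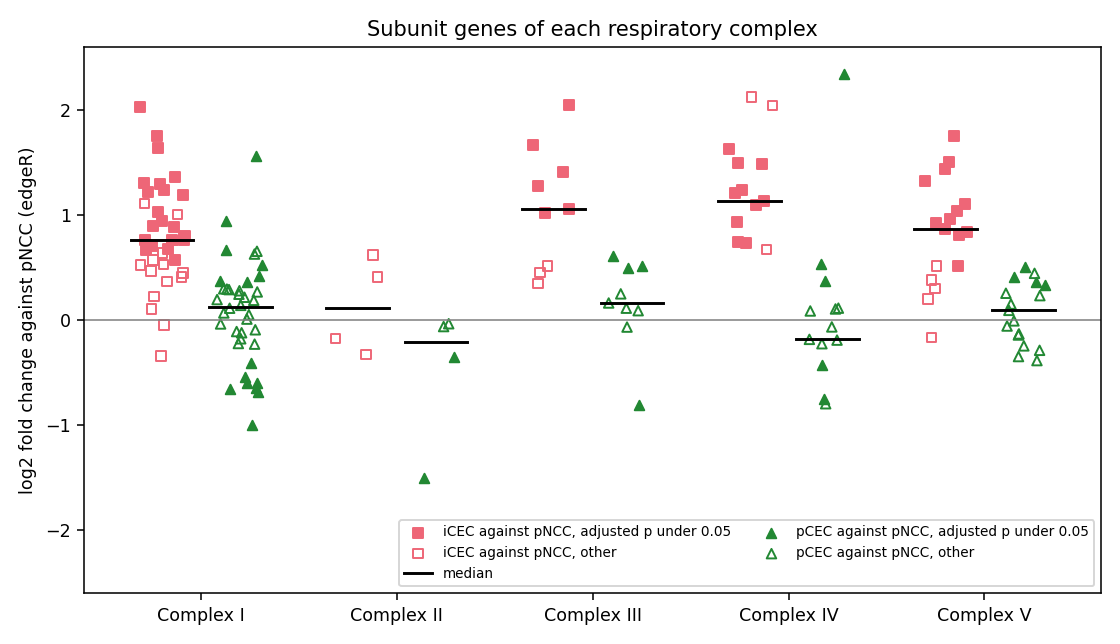
Fitted log2 fold change against pNCC of each tested subunit gene, by complex, for iCEC (squares) and pCEC (triangles), with filled symbols at an edgeR adjusted p under 0.05 and bars at the median over all tested members. The iCEC medians of complexes I, III, IV and V lie at 0.77, 1.06, 1.14 and 0.87, and the pCEC medians between -0.21 and 0.17; Cox6a2 and Cox4i2, whose folds rest on few counts, are left out of the points.

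Both comparisons against pNCC share the same 3 pNCC libraries, so their calls are not independent of each other. For 6 members, Ndufa2, Ndufa7, Ndufc2, Uqcrq, Cox6a1 and Cox7c, the call was higher in iCEC and lower in pCEC. They were 7.32% of the 82 members tested in both comparisons, and 0.805% of the 15647 genes tested in both had that pair of calls. The 6 are chosen here for that pattern, which fixes the direction between iCEC and pCEC, so their direct comparison, given with each complex, is a description of its size. Summed over members, complex I amounted to 1289.8, 1393 and 1370.2 in pNCC 1 to 3, 2506, 2034 and 1942 in iCEC 1 to 3 and 1363, 1461 and 1539.9 in pCEC 1 to 3 (CPM). For complex IV the sums were 820.0, 872 and 865 in pNCC 1 to 3, 2119, 1829.8 and 1385 in iCEC 1 to 3 and 861, 813 and 860.4 in pCEC 1 to 3 (CPM). The iCEC libraries were all above the other 6 libraries in both sums, as they were for complexes III and V, whereas for complex II they overlapped pNCC.

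**Figure D2:**
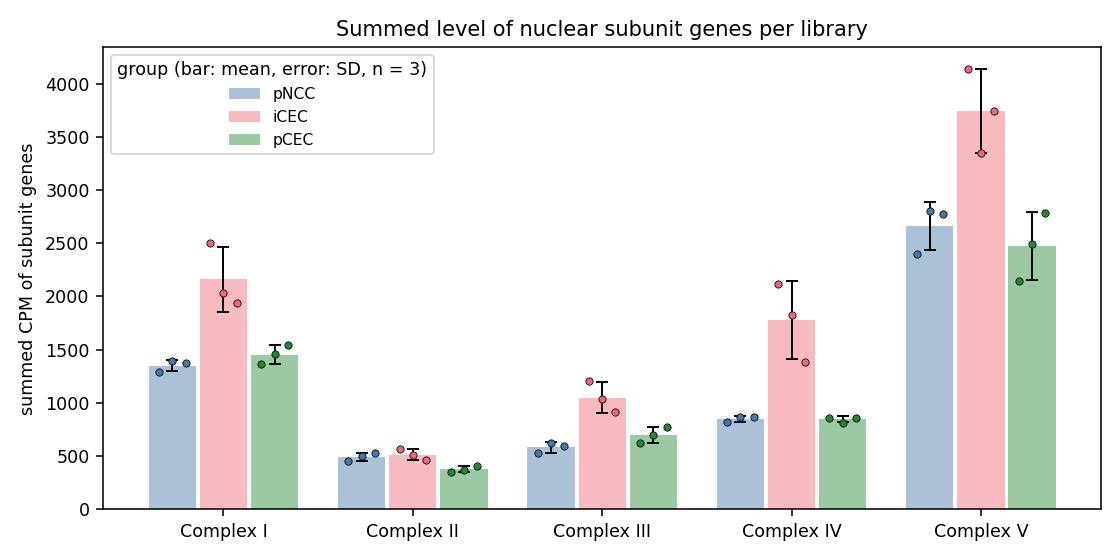
Summed CPM of the nuclear subunit genes of each complex in each library (points), with the group mean (bar) and SD (n = 3). For complex IV the iCEC libraries lie at 1385 to 2119 CPM and all other libraries at 813 to 872 CPM.

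Promoter sequences are shown for 5 members that represent the patterns: Ndufa6 and Uqcr11 rose in iCEC and did not pass in pCEC, Cox6a1 and Cox7c rose in iCEC and fell in pCEC, and Ndufa4 rose in both. Each runs 5′ to 3′ on the gene's strand, from 250 bases before to 50 bases after the annotated start (RefSeq, GRCm38.p6, all 5 on the minus strand). Capitals mark matches on either strand to 4 motifs known from promoters of respiratory genes: GCATGCGC for NRF1, CCGGAAG for ETS factors such as GABPA, GGGCGG for Sp1 and AAGATGGC for YY1. The NRF1 word overlaps its own reverse complement, so 1 stretch can match on both strands.
Ndufa6, chr15:82354242-82354541: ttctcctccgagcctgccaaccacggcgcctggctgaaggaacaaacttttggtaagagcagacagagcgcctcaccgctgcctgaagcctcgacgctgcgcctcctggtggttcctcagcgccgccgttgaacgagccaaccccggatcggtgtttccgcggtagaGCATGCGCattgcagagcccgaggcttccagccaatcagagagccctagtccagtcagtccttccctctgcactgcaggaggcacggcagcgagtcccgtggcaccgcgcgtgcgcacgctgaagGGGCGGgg
Uqcr11, chr10:80406772-80407071: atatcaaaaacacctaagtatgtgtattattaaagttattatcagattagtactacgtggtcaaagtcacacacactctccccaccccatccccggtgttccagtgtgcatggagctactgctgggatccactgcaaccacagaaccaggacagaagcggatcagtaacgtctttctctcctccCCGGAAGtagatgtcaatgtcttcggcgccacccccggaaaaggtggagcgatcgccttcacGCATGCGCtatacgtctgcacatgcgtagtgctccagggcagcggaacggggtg
Cox6a1, chr5:115348909-115349208: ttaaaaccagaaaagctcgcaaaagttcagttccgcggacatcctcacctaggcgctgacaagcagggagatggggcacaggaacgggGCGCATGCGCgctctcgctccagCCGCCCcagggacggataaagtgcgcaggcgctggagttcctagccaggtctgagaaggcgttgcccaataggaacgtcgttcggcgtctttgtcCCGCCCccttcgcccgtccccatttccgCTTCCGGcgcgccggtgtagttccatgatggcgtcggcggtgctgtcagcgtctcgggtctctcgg
Cox7c, chr13:86046746-86047045: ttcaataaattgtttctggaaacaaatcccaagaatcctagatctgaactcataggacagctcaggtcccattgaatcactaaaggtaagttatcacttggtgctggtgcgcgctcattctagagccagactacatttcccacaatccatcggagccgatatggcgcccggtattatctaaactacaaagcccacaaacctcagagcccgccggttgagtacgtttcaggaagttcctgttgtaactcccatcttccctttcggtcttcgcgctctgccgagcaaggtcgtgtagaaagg
Ndufa4, chr6:11907401-11907700: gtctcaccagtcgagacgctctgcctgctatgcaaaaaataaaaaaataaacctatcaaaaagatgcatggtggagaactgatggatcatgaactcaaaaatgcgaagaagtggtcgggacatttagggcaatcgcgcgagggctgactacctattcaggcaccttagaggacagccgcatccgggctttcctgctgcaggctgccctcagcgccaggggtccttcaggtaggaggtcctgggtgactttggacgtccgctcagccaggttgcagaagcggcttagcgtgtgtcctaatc
The capitals in Ndufa6 are an NRF1 and an Sp1 match, and those in Uqcr11 an ETS and an NRF1 match. In Cox6a1 they are NRF1 matches on both strands in 1 stretch, 2 Sp1 matches and an ETS match. No match to these words was found in the windows of Cox7c and Ndufa4.

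Among the 70 members with a promoter in the RefSeq table, the NRF1 word was found in 14.3%, beside 3.05% of all 27025 genes in that table and 5.54% of the 11415 of them tested in iCEC against pNCC. The ETS word was in 24.3% of the members, 9.93% of all genes and 18.7% of the tested ones. For the YY1 word these shares were 14.3%, 3.19% and 4.94%, and for the Sp1 word 40.0%, 38.2% and 67.0%. Of the 10 members with the NRF1 word 7 rose in iCEC against pNCC, as did 14 of the 17 with the ETS word. So did 5 of the 10 with the YY1 word and 13 of the 27 tested with the Sp1 word, beside 49 of all 82 tested members. These 82 include members without a promoter in the RefSeq table, which could not be searched. In pCEC against pNCC, 3 of the 10 with the NRF1 word rose and 1 fell, and of the 17 with the ETS word 3 rose and 2 fell. Of all 83 members tested there, again including some without a promoter, 17 rose and 15 fell. Whether the words mark the members that rose was not tested. A match describes the letters of the window and not a bound site.

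Accessory subunits of complex I surround the catalytic core and are needed for its assembly and stability. Of the 30 tested genes with a complex I name other than the core ones, 18 rose in iCEC, with Ndufa4 of complex IV counted in both numbers, beside 3 of the 7 core subunits of the NADH and iron-sulfur arm; this division was made after the values were seen. Ndufa6, an accessory subunit at chr15:82350140-82354322, stood at 25.2, 24.7 and 19.9 CPM in pNCC 1 to 3, 106, 84.1 and 89.1 CPM in iCEC 1 to 3 and 30.3, 24.4 and 23.4 CPM in pCEC 1 to 3. All 3 iCEC libraries were above all others. It was 4.09-fold higher in iCEC than in pNCC (log2 fold change 2.03, SE 0.18, edgeR adjusted p = 0.00106) and 3.74-fold higher than in pCEC (log2 fold change 1.90), while pCEC against pNCC gave 0.14, which did not pass. Ndufa12, an accessory subunit related to an assembly factor of the complex, stood at 25.2, 25.5 and 27.8 CPM in pNCC 1 to 3, 62.9, 60.3 and 52.9 CPM in iCEC 1 to 3 and 25.02, 26.9 and 28.7 CPM in pCEC 1 to 3. It rose 2.29-fold in iCEC (log2 fold change 1.20, SE 0.15, edgeR adjusted p = 0.00302), and the pNCC and pCEC libraries overlapped. Ndufb11, a subunit of the membrane arm, stood at 32.3, 31.4 and 29.6 CPM in pNCC 1 to 3, 85.0, 72.1 and 67.2 CPM in iCEC 1 to 3 and 53.6, 49.0 and 47.7 CPM in pCEC 1 to 3, with the pCEC libraries between the other groups. It rose in iCEC (log2 fold change 1.30) and in pCEC (0.67). Ndufb3, also of the membrane arm, had 15.0, 15.5 and 14.5 CPM in pNCC 1 to 3, 57.1, 57.0 and 34.3 CPM in iCEC 1 to 3 and 30.1, 26.8 and 31.1 CPM in pCEC 1 to 3. It was the complex I member with the largest rise in iCEC after Ndufa6 (log2 fold change 1.76), and it rose by 0.95 in pCEC. The iCEC and pCEC calls of these 4 genes against pNCC held without any 1 library, as did the calls of Ndufa6 and Ndufa12 against pCEC.

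Ndufa4, at chr6:11900292-11907497, carries a complex I name but is known as a subunit of complex IV. It stood at 53.3, 62.6 and 65.2 CPM in pNCC 1 to 3, 288, 165 and 99.8 CPM in iCEC 1 to 3 and 157, 173 and 218 CPM in pCEC 1 to 3. All pCEC and iCEC libraries were above all pNCC libraries, and the iCEC libraries spread widely. It was the member with the largest rise in pCEC among those with a mean of at least 10 CPM (2.96-fold, log2 fold change 1.57, SE 0.15, edgeR adjusted p = 0.00011), and it rose 3.12-fold in iCEC (log2 fold change 1.64). Per kilobase of transcript its level was the next after Atp5b among the 82 members with a length in pCEC (397 CPM per kilobase), and in iCEC it was at 401, from 131 in pNCC. Its paralog Ndufa4l2, which is known to respond to low oxygen, stood at 39.6, 21.6 and 11.7 CPM in pNCC 1 to 3, 118, 591 and 37.8 CPM in iCEC 1 to 3 and 0.419, 3.73 and 4.91 CPM in pCEC 1 to 3. Of the summed counts of both genes, Ndufa4l2 took 42.6, 25.6 and 15.2% in pNCC 1 to 3, 29.1, 78.1 and 27.5% in iCEC 1 to 3 and 0.266, 2.11 and 2.20% in pCEC 1 to 3. The share was lower in all pCEC libraries than in all others (exact 2-sided permutation p = 0.1 against pNCC and against iCEC, the smallest that 3 against 3 allows), and the iCEC and pNCC libraries overlapped. The call of Ndufa4 was lost without pNCC 1, pNCC 2 or pNCC 3 (edgeR adjusted p from 0.0819 to 0.0968). Its pCEC call held without any 1 library.

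The complex I members called higher in iCEC and lower in pCEC were Ndufa7, Ndufa2 and Ndufc2. Ndufa7, an accessory subunit at chr17:33824572-33838317, stood at 40.6, 40.1 and 41.0 CPM in pNCC 1 to 3, 86.8, 66.7 and 66.6 CPM in iCEC 1 to 3 and 20.8, 21.9 and 19.4 CPM in pCEC 1 to 3. The 3 groups did not overlap, with iCEC on top and pCEC at the bottom. Against pNCC it was 1.85-fold higher in iCEC (log2 fold change 0.89, SE 0.16, edgeR adjusted p = 0.0101) and 1.99-fold lower in pCEC (log2 fold change -0.99, SE 0.11, edgeR adjusted p = 0.000198), and the direct comparison gave 3.70-fold higher in iCEC (edgeR adjusted p = 0.00264). Ndufa2, a small accessory subunit with a thioredoxin fold, had 26.0, 29.3 and 28.7 CPM in pNCC 1 to 3, 69.8, 56.8 and 40.9 CPM in iCEC 1 to 3 and 22.2, 18.5 and 17.9 CPM in pCEC 1 to 3. Its groups did not overlap either, with log2 fold changes of 1.03 in iCEC and -0.54 in pCEC against pNCC and 1.57 between them. Ndufc2, of the membrane arm, had 33.4, 36.5 and 35.1 CPM in pNCC 1 to 3, 67.6, 41.4 and 65.6 CPM in iCEC 1 to 3 and 26.6, 25.1 and 28.8 CPM in pCEC 1 to 3. Its changes were smaller (log2 fold change 0.77 in iCEC, -0.41 in pCEC and 1.19 between them). In iCEC against pNCC, the calls of Ndufa7 and Ndufa2 were lost without pNCC 1, pNCC 2 or pNCC 3 (edgeR adjusted p from 0.0537 to 0.0827). The call of Ndufc2 was lost without pNCC 1, pNCC 2, pNCC 3, iCEC 1 or iCEC 3 (edgeR adjusted p from 0.0661 to 0.149). In pCEC against pNCC, the call of Ndufc2 was lost without pNCC 2 or pCEC 2 (edgeR adjusted p from 0.0534 to 0.0722). With all 9 libraries in 1 fit, the pCEC calls of Ndufa2 and Ndufc2 were lost. In iCEC against pCEC, the call of Ndufc2 was lost without iCEC 1, pCEC 1, pCEC 2 or pCEC 3 (edgeR adjusted p from 0.0565 to 0.101).

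Ndufs1, which carries iron-sulfur clusters of the electron input, stood at 72.5, 89.5 and 83.7 CPM in pNCC 1 to 3, 79.1, 63.8 and 89.7 CPM in iCEC 1 to 3 and 51.1, 52.1 and 56.7 CPM in pCEC 1 to 3. All pCEC libraries were below all others (log2 fold change -0.65 against pNCC), and iCEC against pNCC gave -0.05, which did not pass. Ndufv1, which binds NADH, had 74.3, 80.9 and 82.6 CPM in pNCC 1 to 3, 108, 91.0 and 101 CPM in iCEC 1 to 3 and 90.7, 119 and 115 CPM in pCEC 1 to 3 and rose in pCEC (log2 fold change 0.42) but did not pass in iCEC (0.37). The call of Ndufv1 was lost without pNCC 1, pNCC 2, pCEC 2 or pCEC 3 (edgeR adjusted p from 0.0671 to 0.0743). Ndufs3, Ndufs7 and Ndufs8, the core subunits that rose in iCEC, gave 0.67, 0.68 and 0.57, and none of them passed in pCEC (0.30, 0.07 and 0.28). The calls of Ndufs3 and Ndufs7 were lost without pNCC 1, pNCC 2 or pNCC 3 (edgeR adjusted p from 0.0709 to 0.106). The call of Ndufs8 was lost without pNCC 1, pNCC 2, pNCC 3, iCEC 1 or iCEC 3 (edgeR adjusted p from 0.0644 to 0.172). Ndufb6, an accessory subunit with 17.1, 18.5 and 19.8 CPM in pNCC 1 to 3, 45.6, 26.6 and 19.8 CPM in iCEC 1 to 3 and 10.7, 12.1 and 12.3 CPM in pCEC 1 to 3, fell in pCEC (log2 fold change -0.69) and did not pass in iCEC (0.76), where iCEC 3 overlapped pNCC. Ndufa13 and Ndufc1, also accessory subunits, fell in pCEC by 0.60 and 0.60 on the log2 scale. The pCEC calls of Ndufb6 and Ndufc1 were lost with all 9 libraries in 1 fit. The low counts of Ndufb2 and Ndufb8 (at most 10.5 and 8.25 CPM) are uncertain. Another annotated gene overlaps 2.58% and 4.26% of their exonic bases on the same strand, and its part in the low counts was not tested. Ndufb9, Atp5g2 and Atp5o have such an overlap as well.

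Complex II, which links the tricarboxylic acid cycle to the chain, had no member that rose against pNCC. Sdhc, a membrane anchor at chr1:171127165-171150603 that helps bind ubiquinone, stood at 97.0, 112 and 114 CPM in pNCC 1 to 3, 156, 138 and 126 CPM in iCEC 1 to 3 and 34.8, 38.1 and 43.3 CPM in pCEC 1 to 3. All pCEC libraries were below all others. It was 2.83-fold lower in pCEC than in pNCC (log2 fold change -1.50, SE 0.12, edgeR adjusted p = 4.5e-05), the largest fall of a member with a mean of at least 10 CPM, and 3.77-fold higher in iCEC than in pCEC (edgeR adjusted p = 0.0021). Against pNCC the iCEC value did not pass (log2 fold change 0.41). The other anchor, Sdhd, had 62.2, 70.4 and 87.6 CPM in pNCC 1 to 3, 123, 137 and 72.2 CPM in iCEC 1 to 3 and 67.0, 71.5 and 81.1 CPM in pCEC 1 to 3 and did not pass in any comparison. Sdha, the flavoprotein, had 211, 235 and 243 CPM in pNCC 1 to 3, 206, 180.2 and 212 CPM in iCEC 1 to 3 and 169.8, 177 and 203 CPM in pCEC 1 to 3 and fell in pCEC (log2 fold change -0.35). The call of Sdha was lost without pNCC 2, pNCC 3, pCEC 1 or pCEC 2 (edgeR adjusted p from 0.0989 to 0.165). Sdhb, the iron-sulfur subunit, gave -0.06 in pCEC and -0.33 in iCEC, and neither passed.

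In complex III the 5 small subunits without a redox centre rose in iCEC, beside 1 of the 4 catalytic and core proteins, a division made after the values were seen. Uqcr10, a single-helix subunit at chr11:4701973-4704342, stood at 23.1, 26.3 and 26.3 CPM in pNCC 1 to 3, 127, 93.3 and 85.6 CPM in iCEC 1 to 3 and 30.3, 27.6 and 28.4 CPM in pCEC 1 to 3. All iCEC libraries were above all others, and it had the largest rise of the members with a mean of at least 10 CPM (4.14-fold, log2 fold change 2.05, SE 0.20, edgeR adjusted p = 0.00148). Uqcr11, another single-helix subunit, had 20.0, 22.4 and 22.6 CPM in pNCC 1 to 3, 83.3, 65.5 and 54.2 CPM in iCEC 1 to 3 and 25.8, 26.8 and 26.2 CPM in pCEC 1 to 3 and rose 3.19-fold (log2 fold change 1.67). Neither passed in pCEC against pNCC (0.17 and 0.25). Uqcrq, at chr11:53427922-53430831, sits beside cytochrome b and stood at 45.9, 57.1 and 51.5 CPM in pNCC 1 to 3, 148, 110.4 and 109.5 CPM in iCEC 1 to 3 and 27.6, 30.1 and 32.2 CPM in pCEC 1 to 3. Its groups did not overlap. It was 2.43-fold higher in iCEC and 1.75-fold lower in pCEC than in pNCC (log2 fold change -0.81, SE 0.12, edgeR adjusted p = 0.000882 in pCEC), and between iCEC and pCEC it had the largest difference of the 6 members with opposite calls (4.27-fold, log2 fold change 2.09, SE 0.19, edgeR adjusted p = 0.00223). Uqcrh, the hinge protein that helps cytochrome c bind, had 37.8, 48.04 and 44.8 CPM in pNCC 1 to 3, 137, 117 and 85.7 CPM in iCEC 1 to 3 and 66.6, 62.1 and 61.7 CPM in pCEC 1 to 3, with pCEC between the other groups. It rose in iCEC (log2 fold change 1.41) and in pCEC (0.52), as Uqcrb did (1.06 and 0.50). The calls of these 5 genes against pNCC held without any 1 library.

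Of the larger complex III proteins, Uqcrfs1, the Rieske iron-sulfur protein, rose in iCEC (log2 fold change 1.02), with 57.1, 65.6 and 69.5 CPM in pNCC 1 to 3, 138, 138 and 105 CPM in iCEC 1 to 3 and 60.7, 67.4 and 84.5 CPM in pCEC 1 to 3. The call of Uqcrfs1 was lost without pNCC 2 (edgeR adjusted p = 0.0524). Uqcrc1, a core protein facing the matrix, had 127, 155 and 141 CPM in pNCC 1 to 3, 214, 184 and 129 CPM in iCEC 1 to 3 and 179.6, 229 and 251 CPM in pCEC 1 to 3. It rose in pCEC (log2 fold change 0.61), where all libraries were above those of pNCC, and it did not pass in iCEC (0.35), where iCEC 3 lay within the pNCC range and iCEC 1 and iCEC 2 above it. That pCEC call held without any 1 library. Uqcrc2 and Cyc1, the other core protein and cytochrome c1, did not pass in any comparison.

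Complex IV holds Cox7c and Cox5a, the 2 genes that were fixed as leads. Cox7c, a small subunit at chr13:86044816-86046904, stood at 41.8, 47.8 and 42.4 CPM in pNCC 1 to 3, 144, 147 and 72.5 CPM in iCEC 1 to 3 and 31.9, 33.7 and 34.6 CPM in pCEC 1 to 3. The groups did not overlap, and iCEC 3 was well below the other iCEC libraries. It was 2.82-fold higher in iCEC (log2 fold change 1.49, SE 0.30, edgeR adjusted p = 0.0128) and 1.34-fold lower in pCEC (log2 fold change -0.43, SE 0.10, edgeR adjusted p = 0.00948) than in pNCC, and 3.76-fold higher in iCEC than in pCEC (edgeR adjusted p = 0.00688). Cox5a, which joins the catalytic subunits early in assembly, had 40.2, 47.1 and 44.7 CPM in pNCC 1 to 3, 86.7, 81.2 and 38.0 CPM in iCEC 1 to 3 and 44.6, 48.5 and 49.99 CPM in pCEC 1 to 3. Its iCEC 3 value was below every pNCC library, and no comparison passed (log2 fold changes 0.67 in iCEC, 0.09 in pCEC and 0.57 between them). Cox6c, another small subunit, had 56.2, 61.0 and 64.2 CPM in pNCC 1 to 3, 139, 118 and 155 CPM in iCEC 1 to 3 and 57.1, 58.1 and 61.6 CPM in pCEC 1 to 3. It rose 2.32-fold in iCEC (log2 fold change 1.22, SE 0.16, edgeR adjusted p = 0.00357), with pNCC and pCEC overlapping. Cox6b1, on the side where cytochrome c binds, had 57.4, 67.0 and 69.1 CPM in pNCC 1 to 3, 191, 150.4 and 107 CPM in iCEC 1 to 3 and 68.5, 69.5 and 74.4 CPM in pCEC 1 to 3 and rose in iCEC (log2 fold change 1.24) but did not pass in pCEC (0.11). In iCEC against pNCC, the calls of Cox7c and Cox6b1 were lost without pNCC 1, pNCC 2 or pNCC 3 (edgeR adjusted p from 0.0514 to 0.0644). The pCEC call of Cox7c held without any 1 library but was lost with all 9 libraries in 1 fit.

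The other ubiquitous complex IV subunits in iCEC included Cox5b, Cox8a, Cox7b, Cox7a2 and Cox4i1, which rose by 1.10, 1.49, 1.63, 0.94 and 0.74 on the log2 scale. Of these, only Cox7b passed in pCEC (0.37). The calls of Cox5b, Cox7b and Cox4i1 were lost without pNCC 1, pNCC 2 or pNCC 3 (edgeR adjusted p from 0.0666 to 0.0885). The call of Cox8a was lost without pNCC 1, pNCC 2, pNCC 3 or iCEC 1 (edgeR adjusted p from 0.0517 to 0.0827). The call of Cox7a2 was lost without pNCC 1, pNCC 2, pNCC 3, iCEC 1 or iCEC 2 (edgeR adjusted p from 0.0525 to 0.0949). In pCEC against pNCC, the call of Cox7b was lost without pNCC 1 or pNCC 2 (edgeR adjusted p from 0.0925 to 0.106). Cox7a2l, which tethers complex III to complex IV in supercomplexes, had 140.5, 134 and 125 CPM in pNCC 1 to 3, 227, 164 and 267 CPM in iCEC 1 to 3 and 221, 179.8 and 188 CPM in pCEC 1 to 3. It rose in pCEC (log2 fold change 0.54) and in iCEC (0.75), although its pCEC call was lost with library sizes alone. The call of Cox7a2l was lost without pNCC 1, pNCC 2, pNCC 3 or iCEC 1 (edgeR adjusted p from 0.0885 to 0.15).

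Several complex IV subunits exist as a general and a tissue isoform. Cox6a1, the general form at chr5:115345642-115348981, stood at 123, 123 and 139 CPM in pNCC 1 to 3, 338, 334 and 158 CPM in iCEC 1 to 3 and 75.9, 74.1 and 83.8 CPM in pCEC 1 to 3. All iCEC libraries were above and all pCEC libraries below pNCC, by log2 fold changes of 1.14 and -0.75, and it was 3.67-fold higher in iCEC than in pCEC (log2 fold change 1.88, SE 0.30, edgeR adjusted p = 0.00919). In iCEC against pNCC, its call was lost without pNCC 1, pNCC 2, pNCC 3, iCEC 1 or iCEC 2 (edgeR adjusted p from 0.0915 to 0.14). In iCEC against pCEC, it was lost without pCEC 2 (edgeR adjusted p = 0.0519). In pCEC against pNCC, the call of Cox6a1 was lost with all 9 libraries in 1 fit. Its heart and skeletal muscle form Cox6a2 had 157 counts over the pNCC libraries, 2 over the iCEC and 0 over the pCEC libraries. Scaled to library size, the ratio of pNCC to iCEC was 93.3 (95% counting interval 25.4 to 777), and pNCC was at least 14.8-fold higher than pCEC, taking 3 counts in each pCEC library. Cox4i2, the form of Cox4i1 known from lung and low oxygen, had 64 counts in pNCC and 3 in each other group, a ratio of 25.4 to iCEC (interval 8.29 to 126) and 18.4 to pCEC (interval 6.02 to 91.6). Both genes were called lower in both groups by edgeR, the iCEC call of Cox4i2 was lost without pNCC 2 or pNCC 3, and the intervals cover counting error only. Skeletal muscle markers moved with them: all 6 tested of 8 were lower in iCEC and in pCEC, and their sum was 81.6 to 93.4 CPM in pNCC, 1.94 to 2.95 CPM in iCEC and 1.56 to 1.68 CPM in pCEC, with Myod1 and Myh8 at 0 counts in all iCEC and pCEC libraries. The part of muscle RNA in the 2 isoforms was not tested.

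As a share of both isoforms, Cox6a2 took 1.85, 1.04 and 0.672% in pNCC 1 to 3, 0, 0 and 0.0315% in iCEC 1 to 3 and 0, 0 and 0% in pCEC 1 to 3. Cox4i2 took 0.231, 0.399 and 0.635% in pNCC 1 to 3, 0, 0.0139 and 0.0213% in iCEC 1 to 3 and 0, 0.0453 and 0.0315% in pCEC 1 to 3 of the Cox4i counts. Both shares were higher in all pNCC libraries than in all others (exact 2-sided permutation p = 0.1 for each against iCEC and against pCEC, the smallest possible). Cox7a1, the muscle form of Cox7a2, took 1.07, 0.242 and 0.253% in pNCC 1 to 3, 0.961, 1.31 and 0.810% in iCEC 1 to 3 and 1.06, 3.41 and 2.48% in pCEC 1 to 3, with groups that overlapped (exact permutation p from 0.2 to 0.3). Its level in every library was 0.112 to 1.53 CPM, and its call in pCEC (log2 fold change 2.35) was lost without pNCC 2, pNCC 3 or pCEC 2. Cox6b2, the testis form, took 1.73, 1.89 and 0.821% in pNCC 1 to 3, 4.58, 1.98 and 0.139% in iCEC 1 to 3 and 0.608, 0.914 and 0.838% in pCEC 1 to 3, and no comparison of it passed. Cox8b had 6 counts, all in pNCC 2, and Cox7b2 had 2 counts, all in pNCC 1. Counts of Ndufb4b, Ndufb4c, Ndufs6b, Ndufa11b, Ndufb11b and Cox6c2, which were at or under 0.475 CPM in every library, are uncertain, since they resemble other members closely.

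Complex V has a catalytic head, stalks and a membrane part. Of the 5 genes of F1, which holds the head and the central stalk, 2 rose in iCEC (Atp5d and Atp5e), beside 10 of the 12 others. This division was made after the values were seen. Atp5b, the catalytic β subunit, had 840.0, 1043 and 1074 CPM in pNCC 1 to 3, 1249, 905 and 1411 CPM in iCEC 1 to 3 and 615, 778 and 923 CPM in pCEC 1 to 3. Its level per kilobase was the highest of the 82 members with a length in each group (514, 620.2 and 403 CPM per kilobase in pNCC, iCEC and pCEC). Atp5b did not pass in any comparison. Atp5h, the d subunit of the outer stalk at chr11:115415689-115419962, stood at 72.9, 76.3 and 75.9 CPM in pNCC 1 to 3, 151, 147 and 155 CPM in iCEC 1 to 3 and 102, 102 and 101 CPM in pCEC 1 to 3. The 3 groups were narrow and separate. It rose 2.06-fold in iCEC (log2 fold change 1.04, SE 0.13, edgeR adjusted p = 0.00293) and 1.33-fold in pCEC (log2 fold change 0.41). Atp5mpl, a small membrane subunit, had 19.8, 19.6 and 19.0 CPM in pNCC 1 to 3, 64.6, 49.0 and 40.9 CPM in iCEC 1 to 3 and 23.1, 22.6 and 20.3 CPM in pCEC 1 to 3 and rose in iCEC (log2 fold change 1.44) but did not pass in pCEC (0.16). Atp5e, the ε subunit of the rotor, had 29.7, 30.7 and 29.8 CPM in pNCC 1 to 3, 109, 88.7 and 53.5 CPM in iCEC 1 to 3 and 42.1, 45.8 and 42.9 CPM in pCEC 1 to 3 and rose in both (log2 fold changes 1.51 and 0.51). Atp5k, the e subunit that bends the membrane at dimers, had 4.90, 6.85 and 7.12 CPM in pNCC 1 to 3, 31.6, 20.9 and 9.64 CPM in iCEC 1 to 3 and 9.10, 9.35 and 7.72 CPM in pCEC 1 to 3, a rise of 1.75 in iCEC. The call of Atp5e was lost without pNCC 1 or pNCC 2 (edgeR adjusted p from 0.0524 to 0.0526). The call of Atp5k was lost without pNCC 1, pNCC 2, pNCC 3, iCEC 1 or iCEC 2 (edgeR adjusted p from 0.0707 to 0.122). The pCEC calls of Atp5h and Atp5e held without any 1 library, but that of Atp5e was lost with all 9 libraries in 1 fit.

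The c ring, which turns as protons pass, is encoded by 3 genes for the same mature peptide. Atp5g1 took 21.7, 22.9 and 23.7% in pNCC 1 to 3, 25.7, 23.2 and 25.3% in iCEC 1 to 3 and 20.9, 21.1 and 21.2% in pCEC 1 to 3 of their counts. Atp5g2 took 36.4, 33.2 and 31.7% in pNCC 1 to 3, 29.3, 28.7 and 29.1% in iCEC 1 to 3 and 41.0, 39.5 and 41.6% in pCEC 1 to 3. Atp5g3 took the remainder, at 43.5% ± 1.41 (SD, n = 3) in pNCC, 46.2% ± 1.65 in iCEC and 38.2% ± 1.09 in pCEC. The Atp5g1 share was lower in all pCEC libraries than in all others (exact 2-sided permutation p = 0.1 against each group), and iCEC and pNCC overlapped (exact permutation p = 0.2). By level, Atp5g1 had 57.7, 71.3 and 70.3 CPM in pNCC 1 to 3, 134, 111 and 105 CPM in iCEC 1 to 3 and 57.5, 66.9 and 71.3 CPM in pCEC 1 to 3, and Atp5g3 had 111, 136 and 132 CPM in pNCC 1 to 3, 235, 230.3 and 188 CPM in iCEC 1 to 3 and 104, 125 and 125 CPM in pCEC 1 to 3. Both were higher in iCEC than in pNCC (log2 fold changes 0.84 and 0.81) and than in pCEC (0.90 and 0.94). The calls of Atp5g1 and Atp5g3 were lost without pNCC 1, pNCC 2 or pNCC 3 (edgeR adjusted p from 0.0583 to 0.075). Atp5g2, with 96.7, 103 and 94.0 CPM in pNCC 1 to 3, 152, 137 and 120.5 CPM in iCEC 1 to 3 and 113, 125 and 139.6 CPM in pCEC 1 to 3, rose in iCEC (0.51) and in pCEC (0.33). In iCEC, the call of Atp5g2 was lost without pNCC 1, pNCC 2, pNCC 3, iCEC 1 or iCEC 2 (edgeR adjusted p from 0.0771 to 0.178). In pCEC, the call of Atp5g2 was lost without pNCC 1, pNCC 2, pNCC 3, pCEC 2 or pCEC 3 (edgeR adjusted p from 0.0684 to 0.11). The calls of Atp5g1 and Atp5g3 were lost without pCEC 1, pCEC 2 or pCEC 3 (edgeR adjusted p from 0.0581 to 0.0818) in iCEC against pCEC.

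The remaining members are given by their log2 fold changes and calls. Ndufb9 rose in iCEC against pNCC (0.80) and did not pass in pCEC (0.20). Its iCEC call was lost without pNCC 1, pNCC 2, pNCC 3 or iCEC 1. Atp5o, Ndufb2 and Ndufb8 passed in no comparison, with log2 fold changes of -0.16, 1.11 and -0.34 in iCEC against pNCC. In iCEC against pNCC Atp5j (0.97), Atp5j2 (1.11), Atp5l (0.87), Atp5md (1.33), Ndufa1 (0.94), Ndufa5 (1.25), Ndufb1 (1.37), Ndufb10 (0.90), Ndufb4 (1.22) and Ndufb7 (0.71) rose by the log2 fold changes in parentheses, and they did not pass in pCEC. In both groups Atp5d, Ndufa11, Ndufs4 and Ndufs6 rose, by 0.93, 0.76, 0.77 and 1.31 in iCEC and 0.36, 0.37, 0.36 and 0.52 in pCEC, in that order. Neither comparison passed for Atp5a1 (0.38), Atp5c1 (0.52), Atp5pb (0.20), Ndufa10 (0.45), Ndufa3 (1.01), Ndufa8 (0.53), Ndufa9 (0.23), Ndufb5 (0.47), Ndufs5 (0.64), Ndufv2 (0.41) and Ndufv3 (0.53), where parentheses hold the log2 fold change in iCEC. In iCEC against pNCC, the calls of Atp5j2, Ndufa1, Ndufb1, Ndufb4, Atp5d, Ndufa11 and Ndufs6 were lost without pNCC 1, pNCC 2 or pNCC 3 (edgeR adjusted p from 0.0509 to 0.107). The calls of Atp5j, Atp5l, Atp5md, Ndufa5, Ndufb7 and Ndufs4 were lost without pNCC 1, pNCC 2, pNCC 3, iCEC 1 or iCEC 2 (edgeR adjusted p from 0.0516 to 0.18). In pCEC against pNCC, the calls of Ndufs4 and Ndufs6 were lost without pNCC 2 (edgeR adjusted p from 0.0559 to 0.0878). The call of Ndufa11 was lost without pNCC 1, pNCC 2, pCEC 2 or pCEC 3 (edgeR adjusted p from 0.0565 to 0.136). The call of Atp5d was lost without pNCC 1, pNCC 2, pNCC 3, pCEC 2 or pCEC 3 (edgeR adjusted p from 0.075 to 0.121).

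**Figure D3:**
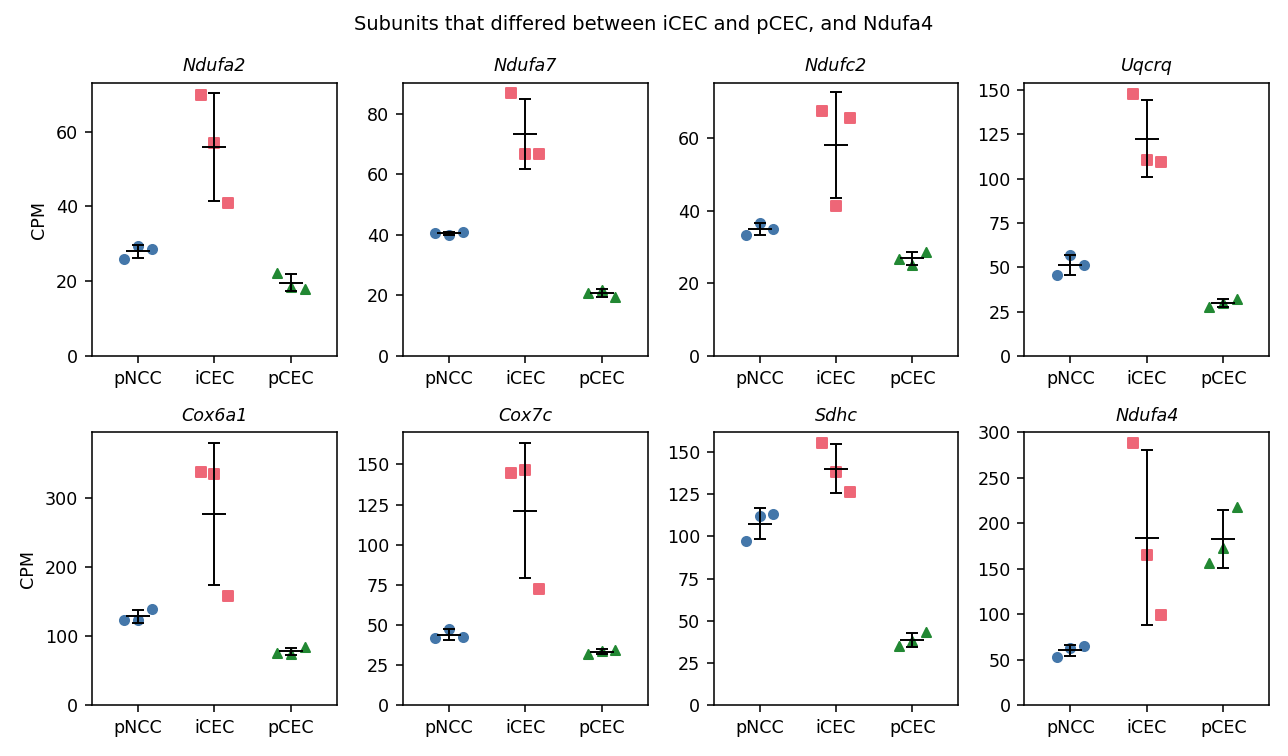
CPM of 8 subunit genes in each library (points), with the mean and SD of each group of 3. For Ndufa2, Ndufa7, Ndufc2, Uqcrq, Cox6a1 and Cox7c all iCEC points lie above and all pCEC points below those of pNCC, Sdhc is low in pCEC (34.8 to 43.3 CPM), and Ndufa4 is above pNCC in both other groups.

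Shorter subunit transcripts had larger log2 fold changes in iCEC. Subunit genes have short transcripts: the median over the 82 members with a length was 711 bases, beside 2749.5 bases over genes tested in iCEC against pNCC. Among members, Spearman's rho between log2 length and the log2 fold change in iCEC against pNCC was -0.65 over 79 genes, and over all 13418 tested genes with a length it was -0.17. In pCEC against pNCC these values were -0.13 and -0.11, and in iCEC against pCEC -0.42 and -0.07. The correlations are across genes, which share libraries and are not independent replicates. For transcripts under 600 bases, the median log2 fold change in iCEC against pNCC was 1.26 over 28 members and 0.71 over 155 other genes. From 600 to under 1000 bases it was 0.81 and 0.46, from 1000 to under 2000 bases 0.46 and 0.15, and from 2000 to under 4000 bases 0.42 (6 members) and -0.03. Median transcript lengths were 645 bases for genes with a complex I name outside the core and 474.5 for the small complex III subunits, against 1312 and 1586.5 for the core proteins of the same complexes. The part of transcript length in the iCEC values was not tested.

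**Figure D4:**
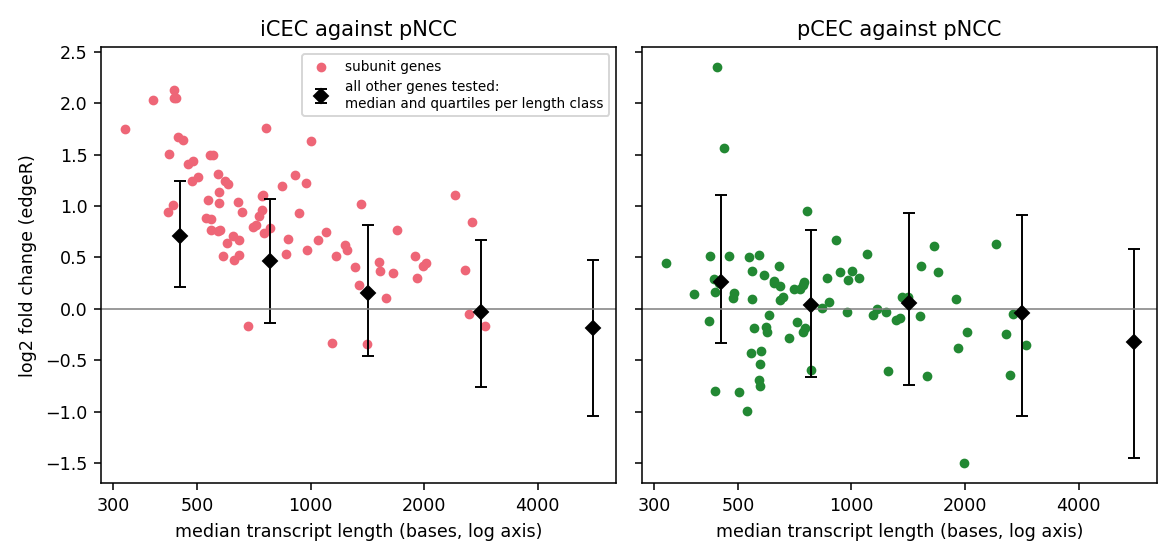
Log2 fold change of each subunit gene (points) against its median transcript length (bases, log axis) in iCEC and in pCEC, each against pNCC, with the median and quartiles of all other tested genes per length class (diamonds); Cox6a2 and Cox4i2 are left out. In iCEC the members fall from a median of 1.26 under 600 bases to 0.42 at 2000 to under 4000 bases, and other genes fall from 0.71 to -0.03.

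Regulators of mitochondrial gene expression included Ppargc1a, which was higher in iCEC than in each other group. Ppargc1a, the coactivator PGC-1α that drives mitochondrial biogenesis in muscle and brown fat, stood at 0.831, 0.449 and 0.229 CPM in pNCC 1 to 3, 24.6, 21.8 and 36.8 CPM in iCEC 1 to 3 and 0.539, 1.28 and 0.755 CPM in pCEC 1 to 3. All iCEC libraries were above all others, 56.1-fold above pNCC (log2 fold change 5.81, SE 0.57, edgeR adjusted p = 0.00159) and 33.9-fold above pCEC (log2 fold change 5.08, SE 0.47, edgeR adjusted p = 0.00238), while pCEC against pNCC did not pass (0.74). Esrra, a nuclear receptor that acts with it on respiratory genes, had 22.2, 26.4 and 28.1 CPM in pNCC 1 to 3, 152, 128 and 89.7 CPM in iCEC 1 to 3 and 121, 126 and 117 CPM in pCEC 1 to 3. It rose in both groups (4.94-fold and 4.66-fold). Pprc1, a coactivator of the same family, had 91.3, 107 and 100.01 CPM in pNCC 1 to 3, 43.0, 48.7 and 50.8 CPM in iCEC 1 to 3 and 37.6, 49.0 and 48.7 CPM in pCEC 1 to 3 and fell in both (log2 fold changes -1.03 and -1.17). Gabpa, the ETS factor whose motif was searched above, fell in both as well (-0.59 and -0.49), and Nrf1, Yy1 and Tfam passed in neither (-0.13, 0.22 and 0.35 in iCEC). Of the 19 tested regulators of 20, 4 rose and 2 fell in iCEC, with Polg2 (1.44) and Myc (1.02) beside those named. In pCEC 3 rose (Esrra, Polg2 and Tfb1m) and 3 fell (Pprc1, Gabpa and Tfb2m). Among all genes tested, 16.1% were called higher and 15.1% lower in iCEC, and 30.3% and 32.2% in pCEC. The call of Gabpa was lost without pNCC 1, pNCC 2, pNCC 3 or iCEC 1 (edgeR adjusted p from 0.0634 to 0.12). The call of Myc was lost without pNCC 1, pNCC 2, pNCC 3, iCEC 1 or iCEC 2 (edgeR adjusted p from 0.066 to 0.121). The call of Polg2 was lost without pNCC 1, pNCC 2, pNCC 3 or iCEC 2 (edgeR adjusted p from 0.0738 to 0.159). In pCEC, the call of Gabpa was lost without pCEC 2 or pCEC 3 (edgeR adjusted p from 0.0541 to 0.0555). The call of Tfb2m was lost without pNCC 2 or pCEC 2 (edgeR adjusted p from 0.0517 to 0.0599). Ssbp1, a single-strand binding protein of mitochondrial DNA, was higher in iCEC than in pCEC (0.63). The call of Ssbp1 was lost without iCEC 1, iCEC 2, pCEC 1, pCEC 2 or pCEC 3 (edgeR adjusted p from 0.059 to 0.202).

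**Figure D5:**
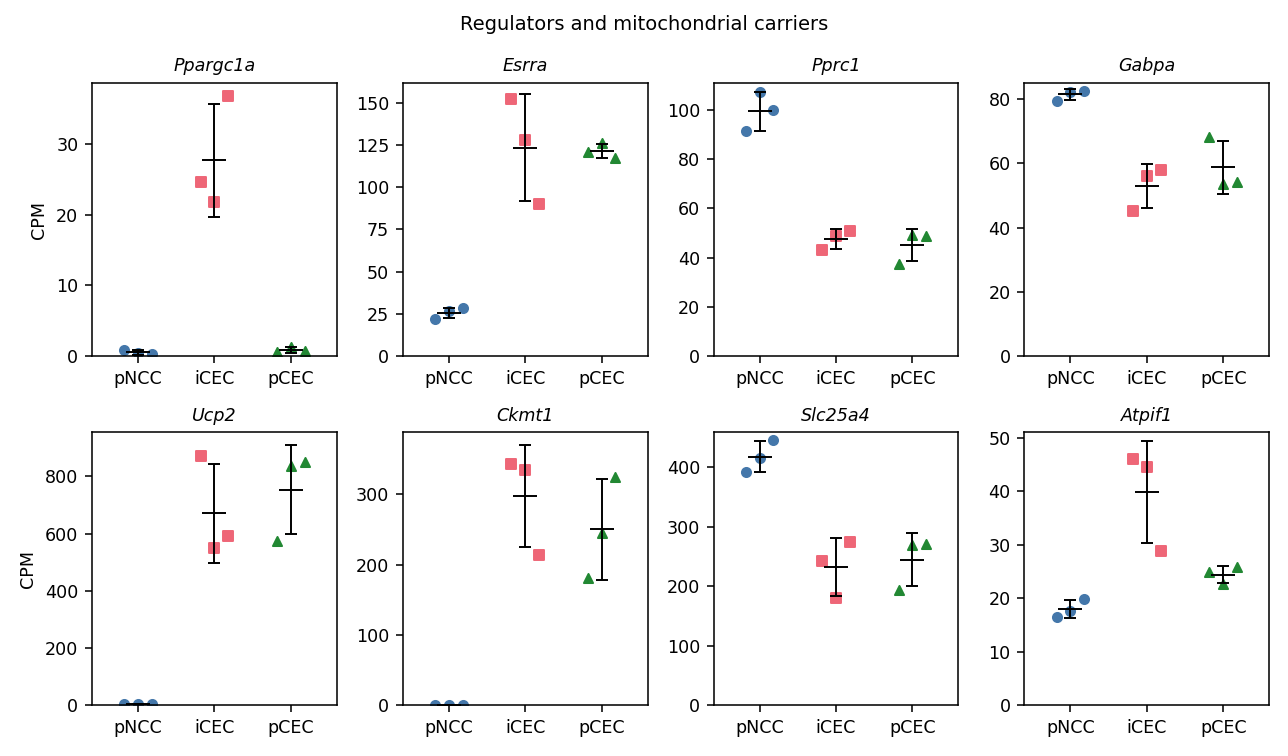
CPM of 4 regulators (Ppargc1a, Esrra, Pprc1, Gabpa) and 4 mitochondrial proteins (Ucp2, Ckmt1, Slc25a4, Atpif1) in each library (points), with the mean and SD of each group of 3. Ppargc1a is high in iCEC alone (21.8 to 36.8 CPM), and Esrra, Ucp2 and Ckmt1 are high in iCEC and pCEC.

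Proteins that use or regulate the proton gradient included some with large changes. Ucp2, a carrier of the uncoupling protein family, stood at 4.21, 3.60 and 5.55 CPM in pNCC 1 to 3, 870.5, 551 and 593 CPM in iCEC 1 to 3 and 576, 836 and 851 CPM in pCEC 1 to 3, 154-fold higher in iCEC and 165-fold higher in pCEC than in pNCC. Ckmt1, the mitochondrial creatine kinase of non-muscle tissue, had 0.297, 0 and 0.514 CPM in pNCC 1 to 3, 343, 334 and 214 CPM in iCEC 1 to 3 and 181, 245 and 324 CPM in pCEC 1 to 3 and rose in both groups (log2 fold changes 10.12 and 9.80). Slc25a4, the ADP and ATP exchanger of heart and muscle, fell in both (-0.81 and -0.80), and Slc25a5, its ubiquitous form, named after its values were seen, rose in both (0.80 and 0.86), although its iCEC call was lost without pNCC 1, pNCC 2, pNCC 3 or iCEC 1. Atpif1, the inhibitor of ATP synthase in reverse, rose in iCEC (1.18) and in pCEC (0.41). Ucp3 had 2 counts in pNCC and 366 in pCEC, a ratio of 212 (95% counting interval 58.3 to 1757). In iCEC it had 79 counts, 33.2 times the pNCC level (interval 8.90 to 279). Its iCEC call was lost without pNCC 1 or pNCC 3. Higd1a and Higd2a, which bind complex IV, were higher in iCEC than in pCEC by 1.55 and 0.97 on the log2 scale. The call of Atpif1 was lost without pNCC 1 or pNCC 2 (edgeR adjusted p from 0.0652 to 0.069). The call of Slc25a4 was lost without pNCC 1, pNCC 2, pNCC 3 or iCEC 1 (edgeR adjusted p from 0.0595 to 0.101). In pCEC, the call of Atpif1 was lost without pNCC 1, pNCC 2 or pCEC 3 (edgeR adjusted p from 0.0664 to 0.11). In iCEC against pCEC, the call of Higd2a was lost without iCEC 1, iCEC 2, pCEC 1, pCEC 2 or pCEC 3 (edgeR adjusted p from 0.0926 to 0.162). The call of Higd1a was lost without iCEC 1, pCEC 1, pCEC 2 or pCEC 3 (edgeR adjusted p from 0.0507 to 0.0932). The Ucp2 and Ckmt1 calls held without any 1 library.

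Assembly factors build the complexes without being part of them. In iCEC against pNCC, 2 of 17 complex I factors rose (Ndufaf8 and Nubpl, with log2 fold changes of 1.38 and 0.90), as did 1 of 6 for complex III (Uqcc3, 1.44) and 6 of 22 for complex IV, among them Cox14 (1.69), Cmc1 (1.04) and Pet100 (2.18). None of these factors fell in iCEC by edgeR. In pCEC, 4 complex I factors rose, among them Foxred1 (0.73), Acad9 (0.80) and Ndufaf3 (0.71), and 5 fell, among them Ndufaf5 (-1.09), Tmem70 (-0.79) and Ndufaf4 (-0.81). Of the complex IV factors 5 rose, among them Coa4 (1.26), Cox14 (1.02) and Coa3 (0.68), and 4 fell, among them Lrpprc (-1.09), which stabilises mitochondrial transcripts, Cox18 (-0.72) and Cox10 (-0.63). Atpaf1 of complex V rose (0.49) and Ttc19 of complex III fell (-0.69) in pCEC. Uqcc3 rose in pCEC too, a call that was lost without pNCC 2, pNCC 3, pCEC 2 or pCEC 3. The shares of all genes tested were 16.1% higher and 15.1% lower in iCEC, and 30.3% and 32.2% in pCEC. Cox14 was higher in iCEC than in pCEC too (0.68), as were Cox17, a copper chaperone (2.02), Sco1 (0.81) and Sdhaf1 of complex II (1.14), while Atpaf1 was lower (-0.70). In iCEC against pCEC, the calls of Cox14, Cox17, Sco1 and Atpaf1 were lost without iCEC 1, iCEC 2, pCEC 1, pCEC 2 or pCEC 3 (edgeR adjusted p from 0.0648 to 0.185). The call of Sdhaf1 was lost without iCEC 1, pCEC 1, pCEC 2 or pCEC 3 (edgeR adjusted p from 0.107 to 0.153). In pCEC, the call of Cox10 was lost without pNCC 2, pNCC 3 or pCEC 1 (edgeR adjusted p from 0.0512 to 0.0552). In iCEC against pNCC, the calls of Uqcc3, Cmc1 and Pet100 were lost without pNCC 1, pNCC 2 or pNCC 3 (edgeR adjusted p from 0.0603 to 0.0938). The call of Ndufaf8 was lost without pNCC 1, pNCC 2, pNCC 3, iCEC 1 or iCEC 2 (edgeR adjusted p from 0.0604 to 0.109). The call of Nubpl was lost without pNCC 1, pNCC 2, pNCC 3 or iCEC 2 (edgeR adjusted p from 0.0711 to 0.173).

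The subunits that the mitochondrial genome encodes are the partners of these nuclear genes. Of 13 tested, 1 rose in iCEC and 2 fell in pCEC, mt-Nd5 and mt-Nd6 (log2 fold changes -0.68 and -0.54). Of all genes tested, 16.1% were called higher in iCEC and 32.2% lower in pCEC. The catalytic complex IV subunit mt-Co1 had 7810.2, 7647 and 8789.9 CPM in pNCC 1 to 3, 16284, 9515 and 15890.1 CPM in iCEC 1 to 3 and 6247, 7184 and 6579 CPM in pCEC 1 to 3, and did not pass in any comparison (0.81 in iCEC, -0.30 in pCEC). The share of all counts on mitochondrial genes was 1.83, 1.84 and 1.93% in pNCC 1 to 3, 2.81, 1.85 and 3.65% in iCEC 1 to 3 and 1.55, 1.78 and 1.42% in pCEC 1 to 3. The gene that rose was mt-Atp6, at 2.53 ± 0.383 CPM in pNCC and 6.69 ± 2.43 CPM in iCEC (mean ± SD, n = 3), a level that is uncertain. Like mt-Co2 and mt-Co3 (4.76 and 3.75 CPM in pNCC) it stood far below mt-Co1, nuclear copies of mitochondrial DNA share sequence with such genes, and how reads with several matches were counted is not given in the sources used here. The call of mt-Atp6 was lost without pNCC 1, pNCC 2, pNCC 3 or iCEC 1 (edgeR adjusted p from 0.0793 to 0.144). In pCEC, the call of mt-Nd6 was lost without pNCC 1, pNCC 2, pNCC 3, pCEC 1 or pCEC 3 (edgeR adjusted p from 0.0641 to 0.144).

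Carriers and the cycle that feeds the chain are given last. Cycs, cytochrome c itself, had 50.8, 67.1 and 70.4 CPM in pNCC 1 to 3, 97.9, 77.0 and 112 CPM in iCEC 1 to 3 and 35.8, 34.0 and 40.6 CPM in pCEC 1 to 3. It fell in pCEC (-0.80) and was higher in iCEC than in pCEC (1.45), whereas iCEC against pNCC did not pass (0.64). Of 15 tested genes for cytochrome c, the electron transfer flavoprotein and ubiquinone synthesis, 2 rose and 1 fell in iCEC, and 4 rose and 7 fell in pCEC. Coq2 and Coq8a, of ubiquinone synthesis, rose in both (Coq2 by 0.71 and 1.18, Coq8a by 2.68 and 2.20), and Coq8b fell in both (-0.71 and -1.10). In pCEC Etfa rose (0.70) and Coq3 fell (-0.92), and Etfdh was higher in iCEC than in pCEC (0.58), as were Mdh2 of the cycle (0.97) and Mrpl12, Mrpl34 and Mrpl38 of the mitochondrial ribosome (1.21, 1.60 and 1.22). Of 17 genes of the tricarboxylic acid cycle and pyruvate dehydrogenase, 1 rose in iCEC (Idh3a, 0.69), and in pCEC 4 rose, among them Ogdh (0.88), Pdhx (0.88) and Suclg2 (0.52), and 7 fell, among them Fh1 (-0.70), Dlst (-0.70) and Dlat (-0.64). Of 77 genes of the mitochondrial ribosome, 21 rose and 1 fell in iCEC, and 8 rose and 29 fell in pCEC. Beside the counts of these lists, 16.1% of all genes tested were called higher and 15.1% lower in iCEC. In pCEC these shares were 30.3% and 32.2%. Mrps12, Mrps35 and Mrpl38 rose in iCEC (1.08, 1.07 and 0.94), Mrpl9, Mrpl14 and Mrpl24 rose in pCEC (1.05, 0.96 and 0.64), Mrps15 and Mrpl13 fell there (-1.15 and -0.76), and Mrps6 fell in both (-0.95 and -2.03). The median log2 fold changes of the ribosome genes were 0.35 in iCEC and -0.23 in pCEC. The calls of Coq2 and Coq8b were lost without pNCC 1, pNCC 2, pNCC 3 or iCEC 2 (edgeR adjusted p from 0.0521 to 0.161). The call of Coq8a was lost without pNCC 1, pNCC 2, pNCC 3 or iCEC 1 (edgeR adjusted p from 0.0527 to 0.115). The call of Idh3a was lost without pNCC 1, pNCC 2, pNCC 3, iCEC 1 or iCEC 2 (edgeR adjusted p from 0.0539 to 0.117). The call of Mrps6 was lost without pNCC 2, pNCC 3, iCEC 1 or iCEC 2 (edgeR adjusted p from 0.0876 to 0.179). In pCEC, none of the calls named was lost without any 1 library. In iCEC against pCEC, the call of Etfdh was lost without iCEC 1, iCEC 2, pCEC 1, pCEC 2 or pCEC 3 (edgeR adjusted p from 0.0624 to 0.183). The call of Mdh2 was lost without iCEC 1, pCEC 1, pCEC 2 or pCEC 3 (edgeR adjusted p from 0.062 to 0.0973). The call of Cycs was lost without pCEC 2 (edgeR adjusted p = 0.0509).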

How the data were processed

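The authors deposited 1 table of whole-number read counts per gene symbol for 9 libraries of 150-base paired reads. The genome build mm10 and edgeR are named per the submitters' processing notes, and the aligner, the counter and the annotation are not given in the sources used here. The labels' protocols do not state that the library kit keeps strand, so reads of a gene and of an antisense partner cannot be told apart: 24 members overlap a gene on the opposite strand, and 5 overlap one on the same strand.

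From these counts, each pair of groups was fitted with edgeR's quasi-likelihood test (edgeR 4.0.16, R 4.3.3) with TMM scaling and the filterByExpr filter, and p-values were adjusted by the Benjamini-Hochberg method across every gene that passed the filter, and 0.05 was the threshold. CPM values are TMM-scaled, standard errors are approximate (the log2 fold change over the square root of F), and shares were compared by exact permutation. Alternatives used DESeq2 1.42.0, other scalings and filters, a replicate block, all 9 libraries in 1 fit, and each library left out. Transcript lengths and gene positions came from GENCODE release M21, and promoters from RefSeq; Python 3.11.15 and matplotlib 3.10.9 were used for tables and plots. The fits were tested on simulated data.

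The members and lists were chosen with earlier results of these data known, and the division by role was made after the values were seen. Named members were the leads, the isoform sets, up to 3 called members in each direction per comparison and complex with the smallest adjusted p, and the 5 with the largest change in each direction at a mean of at least 10 CPM; the same rule of 3 named genes of the related lists. The labels do not say whether libraries with the same replicate number share a source, and the main fits leave such a pairing out. The correlation of deviations was above 0.1 for no pair, which cannot settle this. Floors of 3 counts and the 95% intervals (exact Clopper-Pearson) cover counting error only. The values of 1 member are not reported here.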

Additional observations from a re-analysis of the deposited data

Results flagged for a closer look

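In 6 members, every iCEC library was above every pNCC library and every pCEC library was below, and both differences were called by edgeR. The iCEC calls of Ndufa2, Ndufa7, Ndufc2, Cox6a1 and Cox7c were lost without pNCC 1, pNCC 2 or pNCC 3. The pCEC calls of Ndufa2, Ndufc2, Cox6a1 and Cox7c were lost with all 9 libraries in 1 fit. The difference between iCEC and pCEC was tested directly. It was 1.57 on the log2 scale for Ndufa2 (edgeR adjusted p = 0.00764), 1.89 for Ndufa7 (0.00264) and 1.19 for Ndufc2 (0.021). For Uqcrq it was 2.09 (0.00223), for Cox6a1 1.88 (0.00919) and for Cox7c 1.91 (0.00688), with adjusted p-values in parentheses. The 6 were chosen for their calls against pNCC, which fixes the direction of these differences, so the p-values are no independent support. Over all genes tested in both comparisons, 0.805% had the same pair of calls, beside 7.32% of members.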

How the results depend on the processing

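Leaving out 1 library at a time gave 13 to 62 members higher and 1 to 2 lower in iCEC than in pNCC. It gave 9 to 24 higher and 13 to 15 lower in pCEC than in pNCC, and 10 to 53 higher in iCEC than in pCEC. Over all genes tested, the same fits gave 1093 to 3977 higher and 1229 to 3707 lower in iCEC than in pNCC. They gave 4446 to 5247 higher and 4761 to 5440 lower in pCEC than in pNCC, and 533 to 2733 higher in iCEC than in pCEC. Of the called members, 37 of 51, 10 of 32 and 29 of 39 lost their call in at least 1 of these fits, and none turned its direction. Under the other alternatives 31 of 51 lost it at least once in iCEC against pNCC. In pCEC against pNCC, 10 of the 17 higher calls were kept with library sizes alone. Of the 15 lower calls there, 8 were kept with all 9 libraries in 1 fit. In iCEC against pCEC the replicate block kept 12 of 39. Again none turned. With at least 1 CPM in 3 libraries required, 0 members were lower in iCEC than in pNCC, because Cox6a2 and Cox4i2 were not tested. With library sizes alone, 10 members were higher in pCEC than in pNCC. With pCEC as its polyA-labelled library alone, the members' median log2 fold change was 0.001 in pCEC against pNCC and 0.81 in iCEC against pCEC. Calls of that fit are not counted, since it assumes that the library varies like the other group. With all 9 libraries in 1 fit, 11 members were higher and 8 lower in pCEC than in pNCC. The cause of these last changes was not tested.

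The replicate block gave 18 members higher in iCEC than in pNCC and 12 higher in iCEC than in pCEC, and 13 higher and 16 lower in pCEC than in pNCC. Over all genes tested, the block gave 1429, 664, 4720 and 5057 in the same order. The labels give no link between these samples other than the number, and correlations of same-numbered deviations ran from -0.208 to 0.0716. The Cox4i2 share in iCEC minus pCEC was -0.0139 percentage points and turned to 0.0117 with the polyA-labelled pCEC library alone, in which Cox4i2 had no count. Depth limits Cox6a2, Cox4i2, Cox7a1, Cox8b and Cox7b2, whose values rest on few counts.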
